A study of Mus musculus with 18 samples.

Results

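The genes described here are 5 members of the plasminogen activation system, Plau, Plat, Plaur, Serpine2 and Serpinb2, out of 54752 genes counted in mouse ovarian cancer cells and tumors. They were chosen by name and mapped to their Ensembl identifiers, not by their values. Plau encodes urokinase and Plat encodes tissue-type plasminogen activator (tPA). Plaur encodes the urokinase receptor, and Serpine2 and Serpinb2 encode the inhibitors protease nexin-1 and plasminogen activator inhibitor 2.

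The series measured RNA in mouse ovarian cancer cells and tumors labelled as knockout or control for Cd276, the gene of the immune checkpoint protein B7-H3. RNA was sequenced in 18 libraries, 3 in each of 6 groups. The groups are HM-1 tumors labelled Cd276KO, HM-1 control tumors, cultured ID8 cells labelled Cd276KO, cultured ID8 control cells, cultured HM-1 cells labelled Cd276KO and cultured HM-1 control cells. Total counts were 17349082 to 30959773 per library. HM-1 carries the strain label B6C3F1 and was grown in MEM alpha, and ID8 carries the strain label C57BL6 and was grown in RPMI 1640. For the tumors, 1000000 HM-1 cells were placed in the skin of B6C3F1 mice and the tumors were taken on day 10, so the tumor RNA includes that of the host. The labels call the replicates biological but do not give the knockout method or the clones, cultures or mice behind a group, and p-values measure only the spread between these samples, which may be technical.

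Plasminogen is an inactive precursor that urokinase or tPA cuts into plasmin, a protease that degrades fibrin and matrix proteins. The urokinase receptor holds urokinase at the cell surface and also contacts integrins and vitronectin, whereas tPA acts mainly on fibrin and on cell surface plasminogen receptors. Serpins such as protease nexin-1 and plasminogen activator inhibitor 2 block the activators by forming covalent complexes with them, and receptors of the LDL receptor family clear those complexes. In ovarian cancer the urokinase system is best known for its link to invasion and spread in the peritoneum.

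Coordinates are those of GENCODE on GRCm38. Plau (ENSMUSG00000021822.3) spans chr14:20836660-20843385 and Plat (ENSMUSG00000031538.6) spans chr8:22757727-22782844, both on the forward strand. Plaur (ENSMUSG00000046223.10) spans chr7:24462484-24475968, also forward. Serpinb2 (ENSMUSG00000062345.10) is forward at chr1:107511423-107535478, and Serpine2 (ENSMUSG00000026249.10) is reverse at chr1:79794197-79861180. Each is a protein-coding gene in that annotation, and counts cover its exons. Serpinb2 shares 291 of its 2349 exon bases with Serpinb10 on the same strand, and the other 4 members overlap no other annotated gene.

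The RefSeq tables used here (GRCm38.p6) held promoter windows for 3 members, Plaur, Serpine2 and Serpinb2. The 250 bases before the annotated start are shown for each of these. The genes are the receptor detected in all libraries, an inhibitor found almost wholly in tumors and an inhibitor that was low in every group. The sequences run 5′ to 3′ on the gene's own strand, and capitals mark matches to the AP-1, GC box or TATA motif. The Serpine2 start in RefSeq lies inside the GENCODE gene rather than at its end, and Serpinb2 has a second RefSeq start that is not shown.
Plaur, chr7:24462233-24462482, plus strand: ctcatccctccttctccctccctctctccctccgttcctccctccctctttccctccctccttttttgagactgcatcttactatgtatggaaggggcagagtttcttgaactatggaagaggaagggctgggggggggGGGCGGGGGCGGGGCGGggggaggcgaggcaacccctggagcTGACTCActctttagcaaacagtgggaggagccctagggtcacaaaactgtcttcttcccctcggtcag
Serpine2, chr1:79858666-79858915, minus strand: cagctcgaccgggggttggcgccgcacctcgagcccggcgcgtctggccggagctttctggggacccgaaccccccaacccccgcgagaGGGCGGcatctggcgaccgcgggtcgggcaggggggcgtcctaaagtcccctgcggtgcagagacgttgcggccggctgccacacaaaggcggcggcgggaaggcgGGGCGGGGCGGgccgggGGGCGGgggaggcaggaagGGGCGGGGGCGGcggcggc
Serpinb2, chr1:107511173-107511422, plus strand: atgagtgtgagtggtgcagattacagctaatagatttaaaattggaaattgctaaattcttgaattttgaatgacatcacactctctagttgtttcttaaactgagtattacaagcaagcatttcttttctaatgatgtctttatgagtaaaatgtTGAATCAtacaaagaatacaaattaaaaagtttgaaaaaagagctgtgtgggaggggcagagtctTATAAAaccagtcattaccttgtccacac

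The windows were searched on both strands. The AP-1 motif was spelled TGANTCA and the GC box was GGGCGG, whereas the TATA motif was TATAAA. For the CRE motif the letters were TGACGTCA, and for the E-box CACGTG. A loose NF-kB motif was also searched, which can overlap GC boxes. The Plaur window held an AP-1 match 69 bases before the start and 3 GC boxes between 111 and 100 bases before it. Serpine2 had 6 GC boxes, between 161 and 13 bases before the start, and no AP-1 or TATA match. In Serpinb2, an AP-1 match stood 94 bases and a TATA match 29 bases before the start. Plaur and Serpine2 each held 2 NF-kB matches, 1 of them over GC boxes in Serpine2, and none of the 3 windows held a CRE or E-box match. Of 32851 RefSeq windows of this length, 6.75% held the AP-1 motif, 32.7% the GC box, 12.4% the TATA motif, 45.8% the NF-kB motif, 6.02% the E-box and 1.55% the CRE. These are matches of letters only.

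Cd276 was lower in HM-1 cultures labelled Cd276KO, at 47.2, 47.7 and 44.8 counts per 1000000 library counts (CPM), than in HM-1 control cultures, at 74.2, 93.5 and 91.5 CPM (log2 fold change -0.85, edgeR adjusted p = 0.00146). In ID8 cultures it averaged 19.4 ± 1.45 CPM with the Cd276KO label and 20.9 ± 0.299 CPM in controls (SD, n = 3 each), so gene counts did not separate the ID8 labels (edgeR adjusted p = 0.692). In tumors it averaged 86.6 ± 12.3 CPM with the Cd276KO label and 121.7 ± 18.1 CPM in controls (edgeR adjusted p = 0.105). Control tumor 3 stood apart from control tumors 1 and 2, with chi-square values per gene of 134 and 81.3 against 41.1 between those. HM-1 control culture 1 stood apart from control cultures 2 and 3, with 65.0 and 63.9 against 1.571. The 11 listed epithelial and ovarian cancer genes summed to at least 2971 CPM in every library, although some of them were at 0 in HM-1. Epcam and Pax8 were at 0 in Cd276KO HM-1 cultures, and Epcam and Upk3b in control HM-1 cultures. In the tumors Pax8, Upk3b and Lrrn4 were at 0 with the Cd276KO label, and Upk3b in controls. In the cultures, T cell and NK cell genes summed to at most 0.621 CPM. The 10 macrophage genes summed to 119 to 128 CPM in Cd276KO HM-1 cultures and 79.6 to 94.8 CPM in control HM-1 cultures. In ID8 cultures they summed to 5.62 to 6.80 CPM with the Cd276KO label and 5.85 to 6.77 CPM in controls. C1qa and C1qc of that list were at 0 in all 12 cultures.

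Control tumor 3 also differed in genes of other cell types. Its 8 fibroblast genes summed to 531 CPM, against 18003 and 6022 CPM in control tumors 1 and 2, and to 3700, 6530 and 5361 CPM in the Cd276KO tumors. The 6 keratinocyte genes summed to 7.07 to 7.49 CPM in Cd276KO tumors and to 6.99 to 224 CPM in control tumors, with the highest sum in control tumor 3. Striated muscle genes, 7 in all, summed to 119, 837 and 913 CPM in Cd276KO tumors and to 138, 1.88 and 2.45 CPM in control tumors. The 10 macrophage genes summed to 476 to 762 CPM in Cd276KO tumors and to 740 to 1181 CPM in control tumors. The 7 neutrophil genes summed to 8.98 to 13.9 CPM in Cd276KO tumors and to 31.6 to 119 CPM in control tumors, without overlap. Krtdap, in Cd276KO tumors, was the only gene of these 5 lists at 0 in a tumor group. In bulk RNA fewer cells of a type and less RNA per cell cannot be told apart.

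The members spanned a wide range of levels, and the 2 activators were far higher in tumors than in any culture. In CPM per kilobase of exon, Plaur was the highest member in every group except Cd276KO tumors, where Plau led at 115 ± 14.2 and Plaur followed at 87.5 ± 1.63 (SD, n = 3 each). In control tumors Plaur stood at 156 ± 65.1 and Plau at 64.9 ± 10.7 on this scale. Serpinb2 was the lowest member in both tumor groups, and Serpine2 the lowest in all 4 culture groups. These ranks of the means were the same when the longest transcript served as the length. In Cd276KO tumors, however, Plau then stood at 116 ± 14.4 and Plaur at 114 ± 2.13, within the spread. In Cd276KO tumor 2 Plaur was then the higher, at 112 against 99.4, so the lead of Plau there depends on the length used.

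**Figure D1:**
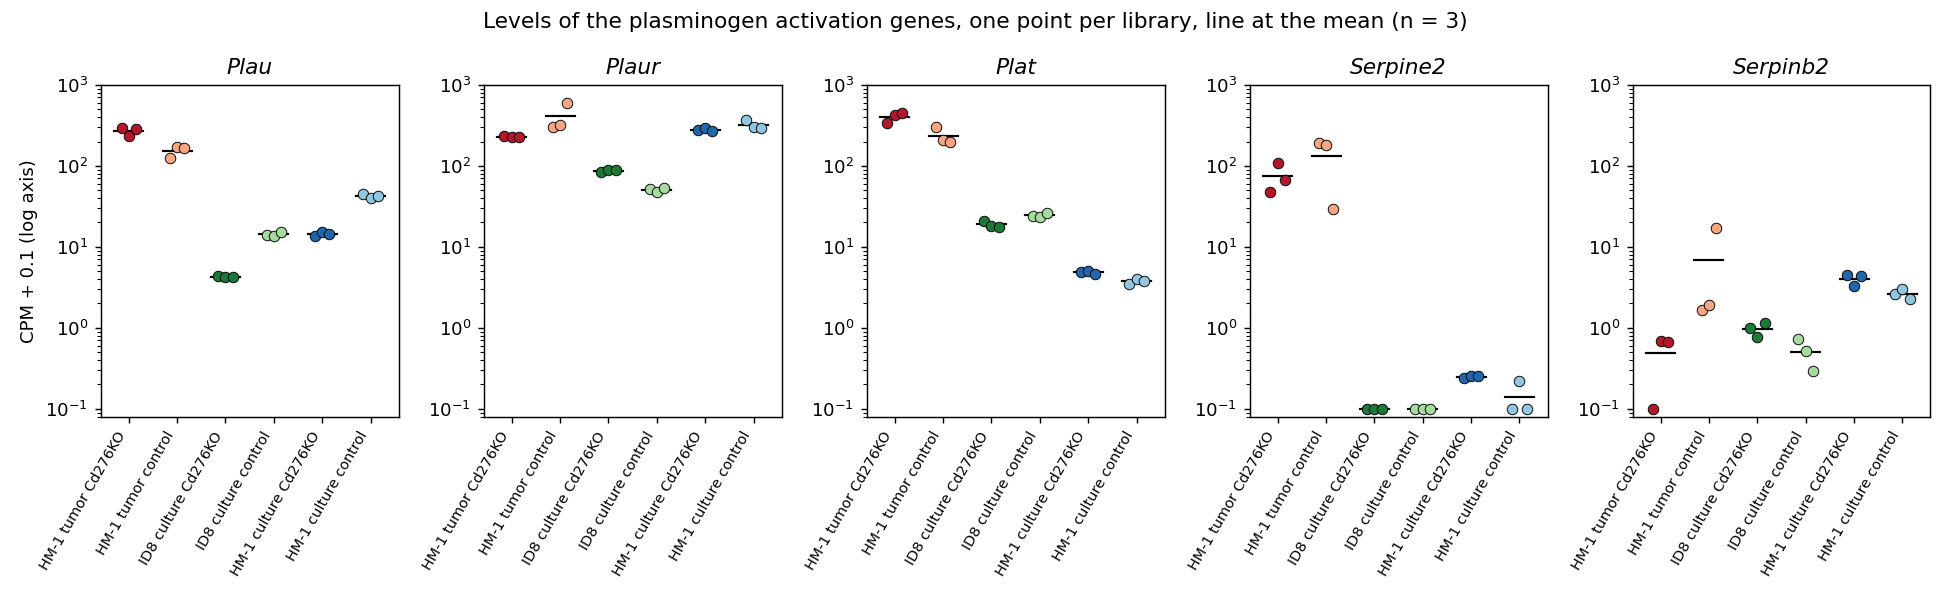
CPM plus 0.1 on a log axis for the 5 members, with 1 point per library and a line at the mean of 3 libraries, for the 6 groups. Plau and Plat are above 100 CPM in all 6 tumor libraries and below 50 CPM in all 12 cultures, and Serpine2 is above 29 CPM in tumors and below 0.2 CPM in cultures.

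Most members differed between Cd276KO and control samples in the cultures, and few calls were made in the tumors. A gene is called here at an edgeR adjusted p under 0.05 over all genes tested. In HM-1 tumors, 2 of 5 tested members were called higher, where 2.2% of all genes were called higher and 5.39% in either direction, or 827 genes. Without Cd276KO tumor 1, 2 or 3 edgeR called 1, 0 and 0 genes in all (2829, 2851 and 2410 at an unadjusted p under 0.05), and 353, 263 and 1685 without control tumor 1, 2 or 3. In ID8 cultures, 2 of 4 tested members were called higher and 2 lower, where 29.4% of genes were called higher and 31.3% lower (60.7% in all). In HM-1 cultures, 2 of 4 were called higher and 1 lower, where 11.6% of genes were called higher and 16.1% lower (27.7% in all). Serpine2 was too low to test in cultures. With so many genes called in the ID8 cultures, the count there is not a result about these members.

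**Figure D2:**
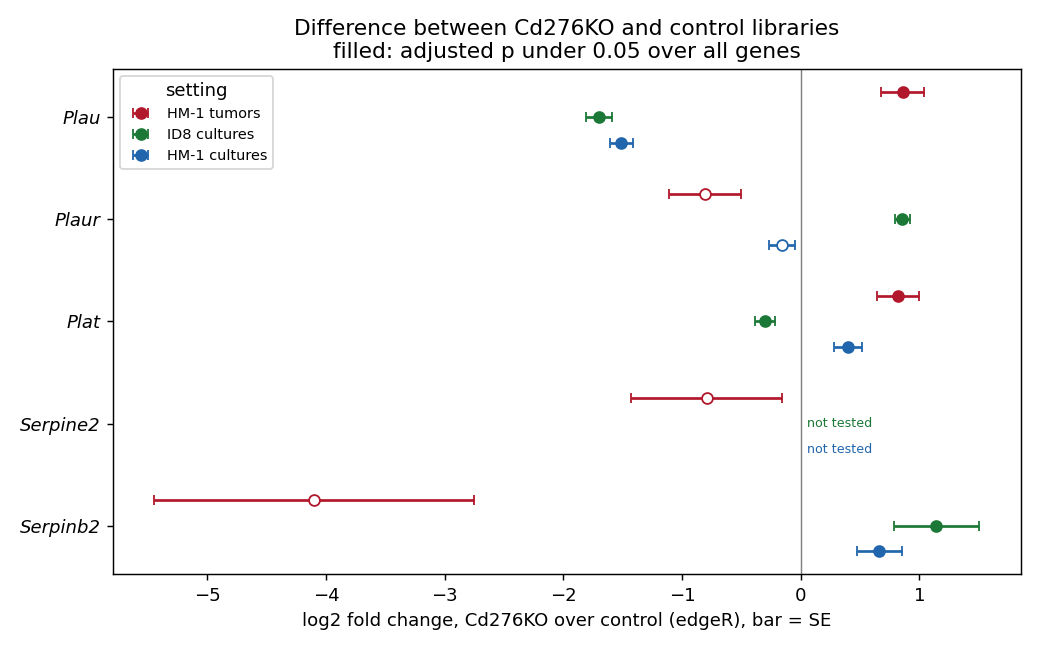
log2 fold change of Cd276KO over control for each member (point) with its SE (bar) in HM-1 tumors, ID8 cultures and HM-1 cultures, filled where the edgeR adjusted p is under 0.05. Plau is at -1.70 and -1.51 in the ID8 and HM-1 cultures and at 0.86 in the tumors.

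Plau fell in both Cd276KO cultures and was higher in the Cd276KO tumors. In ID8 cultures it had 4.26, 4.13 and 4.15 CPM with the Cd276KO label, against 14.1, 13.7 and 15.3 CPM in controls. In HM-1 cultures it had 13.4, 15.4 and 14.5 CPM with the Cd276KO label, against 44.5, 40.4 and 41.9 CPM in controls. The groups were well apart in both lines. Plau was 3.25-fold lower in ID8 (log2 fold change -1.70, SE 0.11, edgeR adjusted p = 3.95e-12) and 2.85-fold lower in HM-1 (log2 fold change -1.51, SE 0.09, edgeR adjusted p = 0.0001). In HM-1 cultures the macrophage genes summed to 119 to 128 CPM with the Cd276KO label and 79.6 to 94.8 CPM in controls, with C1qa and C1qc at 0, and the neutrophil genes to 10.4 to 11.6 CPM and 4.39 to 5.50 CPM in the same order. In ID8 cultures the fibroblast genes summed to 373 to 388 CPM with the Cd276KO label and 507 to 570 CPM in controls, with Lum at 0. The part of these in the Plau values was not tested. Both calls held in all 12 alternatives of each comparison. The difference between these effects was -0.20 on the log2 scale (95% interval -0.45 to 0.04, edgeR adjusted p = 0.221), within its error.

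In the HM-1 tumors Plau had 294, 233 and 287 CPM with the Cd276KO label, against 124, 169 and 167 CPM in controls. The lowest Cd276KO tumor lay above the highest control tumor. This was a 1.81-fold rise (log2 fold change 0.86, SE 0.18, edgeR adjusted p = 0.0483), close to the threshold. The call was lost when any tumor other than control tumor 3 was left out, with log2 fold changes of 0.71 to 0.98, and with a replicate block (edgeR adjusted p = 0.154, with 0.000204 to 0.201 over the 12 alternatives). The neutrophil, macrophage, muscle and fibroblast sums given above also differ among these tumors, and their part in the result was not tested.

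The knockout effect on Plau differed between tumors and cultures of HM-1 by 2.37 on the log2 scale (SE 0.19, edgeR adjusted p = 8.73e-05), where 2.84% of genes were called, 1.72% higher and 1.12% lower. It was the only one of 5 members called in this test, and it stayed called in all 17 alternatives, at 2.27 to 2.48. The tumor and culture values side by side show the size, although these contrasts share samples with the knockout comparisons. By the fitted fold, tumors were 17.2-fold above cultures with the Cd276KO label (271 ± 33.7 against 14.4 ± 0.977 CPM) and 3.29-fold above cultures in controls (154 ± 25.3 against 42.3 ± 2.09 CPM, SD, n = 3 each). The edgeR adjusted p-values were 6.60e-08 and 0.000627. Between control cultures, ID8 was 3.03-fold below HM-1 (log2 fold change -1.60, edgeR adjusted p = 4.09e-06). Cd276KO HM-1 cultures and control ID8 cultures had overlapping Plau levels, and all other neighbours in the order of groups were apart.

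Plat rose in Cd276KO tumors and moved in opposite directions in the cultured lines. In the tumors it had 339, 429 and 449 CPM with the Cd276KO label, against 299, 212 and 199 CPM in controls, without overlap (log2 fold change 0.82, SE 0.17, edgeR adjusted p = 0.0479). This call was lost without Cd276KO tumor 1, 2 or 3 or control tumor 2, with log2 fold changes of 0.73 to 1.00 over the 6 tumors left out, and with a replicate block (edgeR adjusted p = 0.158, with 0.000158 to 0.206 over the 12 alternatives). Control tumor 1, which had the highest Plat of its group, also had the highest fibroblast, muscle, macrophage and endothelial sums of the controls. The 7 endothelial genes summed to 149, 229 and 185 CPM in Cd276KO tumors and to 299.8, 179 and 77.6 CPM in control tumors, with none at 0, and the part of these cell types in the result was not tested.

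In ID8 cultures Plat had 20.7, 18.3 and 17.5 CPM with the Cd276KO label, against 24.0, 23.3 and 26.2 CPM in controls. In HM-1 cultures it had 4.77, 4.97 and 4.49 CPM with the Cd276KO label, against 3.40, 3.94 and 3.72 CPM in controls. The groups did not overlap in either line, but the differences were small. Plat fell 1.23-fold in ID8 (log2 fold change -0.30, SE 0.08, edgeR adjusted p = 0.00305) and rose 1.32-fold in HM-1 (log2 fold change 0.40, SE 0.12, edgeR adjusted p = 0.045). The HM-1 call held in only 3 of 12 alternatives, the ID8 call in 11 of 12. The test of the difference between the lines gave -0.71 (SE 0.15, edgeR adjusted p = 0.00198), in a test that called 40.4% of genes, 19.8% higher and 20.7% lower, and 2 of 4 members.

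Plat was the activator with the larger gap between tumors and cultures. It was 77.8-fold higher in Cd276KO tumors than in Cd276KO cultures (406 ± 58.6 against 4.74 ± 0.243 CPM) and 58.0-fold higher in control tumors than in control cultures (236 ± 54.5 against 3.69 ± 0.272 CPM, SD, n = 3 each). The edgeR adjusted p-values were 7.36e-09 and 5.52e-05. Between Cd276KO tumors and Cd276KO cultures 3 of 5 members were called higher and 2 lower, where 41.2% of genes were called higher and 34.5% lower (75.7% in all). Between control tumors and control cultures 3 of 5 were called higher and none lower, where 25.3% were called higher and 16.6% lower (41.8% in all). The Plaur and Serpinb2 differences not called there had edgeR unadjusted p = 0.501 and 0.202. Between ID8 and HM-1 control cultures, 1 of 4 members was called higher and 3 lower, where 28.8% of genes were called higher and 29.6% lower (58.3% in all). Plat was the member that was higher in ID8 (log2 fold change 2.69, edgeR adjusted p = 4.11e-07).

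The balance of the activator transcripts differed by group in the cultures. Per length, the ratio of Plau to Plat was 0.587 ± 0.042 in Cd276KO and 1.54 ± 0.00538 in control ID8 cultures, and 8.03 ± 0.565 in Cd276KO and 30.4 ± 3.79 in control HM-1 cultures (SD, n = 3 each). In the tumors the ratio was 1.80 ± 0.441 with the Cd276KO label and 1.81 ± 0.618 in controls. The culture groups of a line did not overlap in this ratio, whereas the tumor groups did. With the longest transcript as the length, the mean ratio was 1.01 in ID8 controls and 1.18 in each tumor group. On that length Plat was above Plau in control tumor 1 (73.9 against 53.1) and in Cd276KO tumor 2 (106 against 99.4). Which activator is higher in these groups thus depends on the length used.

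**Figure D3:**
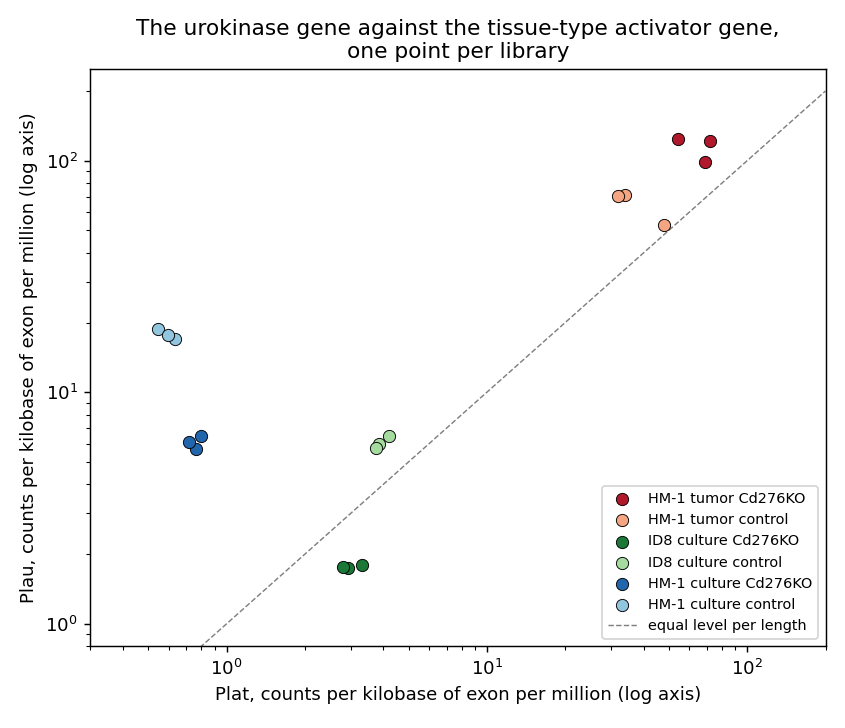
Plau against Plat in CPM per kilobase of exon, on log axes, with 1 point per library and a dashed line of equal level. Cd276KO ID8 cultures lie below the line at ratios of 0.542 to 0.624, and HM-1 cultures lie far above it. All 6 tumors lie above it, with higher levels of both genes. Their ratios are up to 2.29 with the Cd276KO label and up to 2.22 in controls. With the longest transcript as the length, Plat is the higher gene in control tumor 1 and Cd276KO tumor 2.

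Plaur rose in ID8 cultures labelled Cd276KO, and no call was made in HM-1. In ID8 it had 85.0, 87.7 and 88.0 CPM with the Cd276KO label, against 51.4, 47.4 and 52.9 CPM in controls, a 1.81-fold rise (log2 fold change 0.86, SE 0.06, edgeR adjusted p = 3.99e-11). In HM-1 cultures it had 275, 290 and 269 CPM with the Cd276KO label, against 364, 298 and 294 CPM in controls, without overlap, and control culture 1 was the library that stood apart. The log2 fold change there was -0.16 (95% interval -0.37 to 0.06, edgeR adjusted p = 0.314), or -0.04 without control culture 1. The lines differed in this effect by 1.00 on the log2 scale (SE 0.13, edgeR adjusted p = 4.2e-05), and the difference stayed called in all 17 alternatives.

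In the tumors Plaur had 234, 226 and 228 CPM with the Cd276KO label, against 301, 317 and 604 CPM in controls. All 3 Cd276KO tumors lay below all 3 controls, and control tumor 3 alone was above 317 CPM. The log2 fold change was -0.81 (SE 0.30, edgeR adjusted p = 0.162), not past the threshold, and -0.35 without control tumor 3 (adjusted p = 0.0666, with 0.0113 to 0.400 over the 12 alternatives). Tumors were close to cultures in this gene, in contrast to the activators. Plaur was 1.33-fold lower in Cd276KO tumors than in Cd276KO cultures (log2 fold change -0.41, SE 0.06, edgeR adjusted p = 0.00032). Between control tumors and control cultures it differed by 0.21 (95% interval -0.38 to 0.81, edgeR adjusted p = 0.606), and by -0.22 without control tumor 3. ID8 control cultures had 6.49-fold less Plaur than HM-1 control cultures (log2 fold change -2.70, edgeR adjusted p = 8.12e-07).

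The ratio of receptor to urokinase transcripts was higher in both Cd276KO cultures and lower in Cd276KO tumors. Per length, Plaur over Plau was 18.8 ± 0.657 in Cd276KO and 3.19 ± 0.0951 in control ID8 cultures, and 17.5 ± 0.923 in Cd276KO and 6.80 ± 0.536 in control HM-1 cultures. In tumors it was 0.771 ± 0.0915 with the Cd276KO label and 2.38 ± 0.801 in controls (SD, n = 3 each). The groups did not overlap in any of the 3 settings. With the longest transcript as the length, the mean tumor ratios were 0.994 with the Cd276KO label and 3.07 in controls. The ratios restate the values of both genes and were not tested separately.

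Serpine2, the gene of protease nexin-1, was a tumor transcript in these data. It had no count in any of the 6 ID8 cultures, which allows up to 0.0382 CPM in the Cd276KO group and 0.0354 CPM in the control group (3 counts over the group, counting error only). Cd276KO HM-1 cultures had 9 counts in all, 3 in each library, and control HM-1 cultures had 3 counts, all in library 2. In tumors it had 47.9, 108 and 66.1 CPM with the Cd276KO label, against 190, 181 and 29.0 CPM in controls. The tumor groups overlapped, since control tumor 3 had the lowest value of all 6.

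Against the cultures, Serpine2 in Cd276KO tumors was higher by a ratio of 515 (95% counting interval 271 to 1127) and in control tumors by a ratio of 3102 (1061 to 15045.7). These ratios rest on 9 and 3 culture counts. Both differences were called (edgeR adjusted p = 1.0e-05 and 0.000727). Between Cd276KO and control tumors the log2 fold change was -0.79 (95% interval -2.04 to 0.46, edgeR adjusted p = 0.487), and -1.25 without control tumor 3 (adjusted p = 0.0603, with 0.0603 to 0.729 over the 12 alternatives). Within each tumor group, the order of the 3 libraries in Serpine2 was their order in the fibroblast sum. It was also their order in the macrophage sum, the endothelial sum and the T cell and NK cell sum. The part of these cell types in the Serpine2 values was not tested.

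Serpinb2, the gene of plasminogen activator inhibitor 2, was low in every group. In ID8 cultures it had 0.896, 0.676 and 1.06 CPM with the Cd276KO label, against 0.619, 0.420 and 0.190 CPM in controls (log2 fold change 1.14, SE 0.36, edgeR adjusted p = 0.00876). In HM-1 cultures it had 4.39, 3.18 and 4.23 CPM with the Cd276KO label, against 2.50, 2.96 and 2.20 CPM in controls (log2 fold change 0.66, SE 0.19, edgeR adjusted p = 0.0399). It rose in both lines without overlap of the groups, on totals of 68 and 35 counts in the ID8 groups. The HM-1 call held in 7 of 12 alternatives, with adjusted p-values of 0.00111 to 0.594 over the 12, and the ID8 call in 11. The lines did not differ beyond their error in this effect (difference 0.47, 95% interval -0.33 to 1.28, edgeR adjusted p = 0.390).

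In the tumors Serpinb2 had 0, 0.596 and 0.576 CPM with the Cd276KO label, against 1.58, 1.83 and 16.9 CPM in controls. All Cd276KO tumors were below all control tumors, and control tumor 3, the library with 224 CPM of keratinocyte genes, was far above control tumors 1 and 2. That tumor also had the highest neutrophil sum, and the part of those cells in this value was not tested. The log2 fold change of -4.10 (SE 1.35, edgeR adjusted p = 0.123) did not pass the threshold, and it was -2.02 without control tumor 3 (adjusted p = 0.153, with 0.00393 to 0.337 over the alternatives). Serpinb2 was 10.6-fold lower in Cd276KO tumors than in Cd276KO cultures (log2 fold change -3.41, SE 0.57, edgeR adjusted p = 0.000559). Between control tumors and control cultures the log2 fold change was 1.28 (edgeR adjusted p = 0.299), which turned to -0.76 without control tumor 3. Serpinb10, which shares exon bases with it, was at most 0.417 CPM in any library, in control tumor 3.

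**Figure D4:**
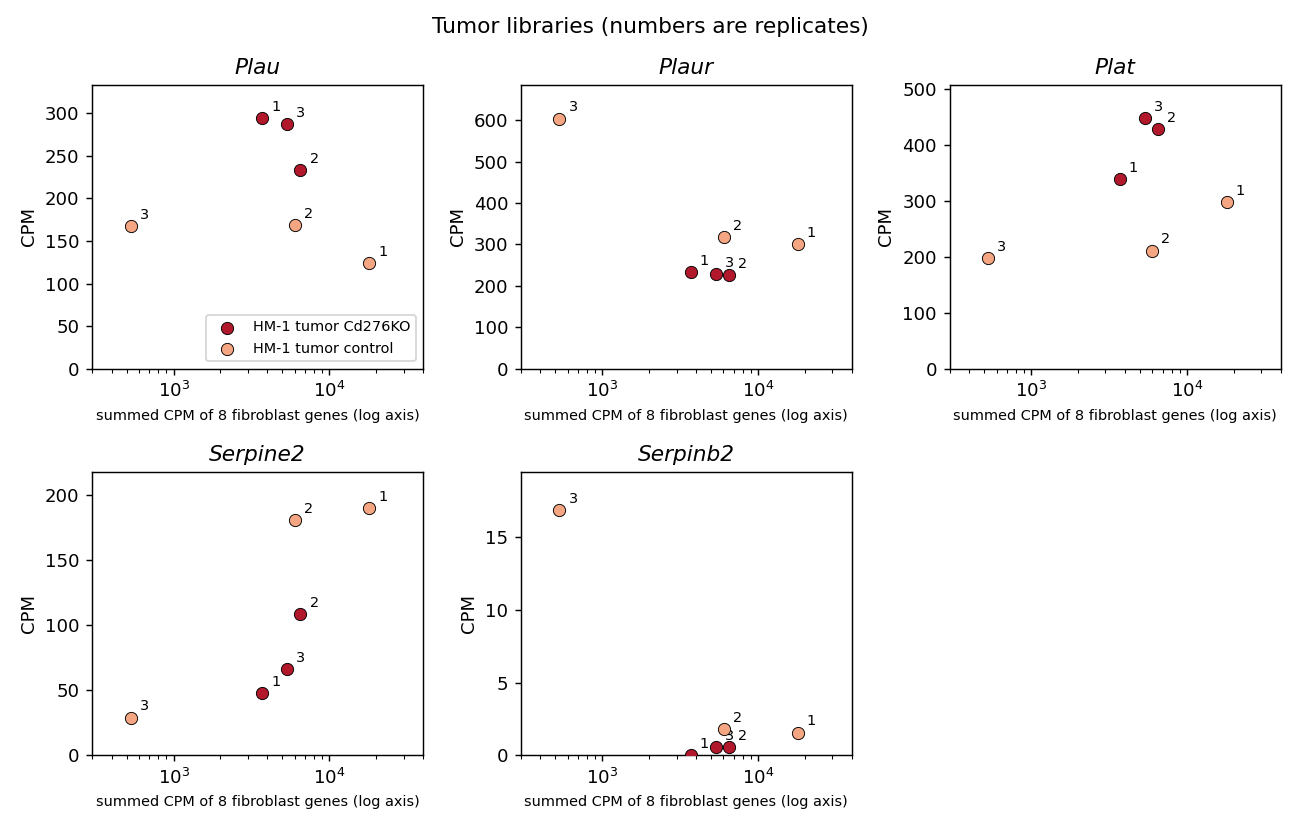
CPM of the 5 members in each tumor library (points, numbered by replicate) against the summed CPM of 8 fibroblast genes on a log axis. Control tumor 3 lies at 531 CPM of fibroblast genes with the highest Plaur and Serpinb2 and the lowest Serpine2, and the Cd276KO tumors lie close together in Plaur, at 226 to 234 CPM.

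Another 65 genes were taken from 8 lists. Of these, 13 are serpins and other genes near Serpinb2 on chromosome 1, and 10 are relatives of Plaur with the same protein fold. Those 2 lists are not lists of pathway genes, and the counts below are over all 65. In HM-1 tumors, 39 were tested, none was called higher by edgeR and 5 were called lower (2.2% and 3.19% of all genes), at a median log2 fold change of -0.49 against -0.03 over all genes. At an unadjusted edgeR p under 0.05, 4 of the 39 were higher and 10 lower, and DESeq2 and voom each called 3 higher and 9 lower. The number called was 0 to 7 when a tumor was left out, and each of the 5 lost its call when any Cd276KO tumor was left out and with a replicate block. In ID8 cultures 6 of 31 were higher and 19 lower (29.4% and 31.3% of all genes), with a median of -0.24 against -0.01. In HM-1 cultures 7 of 28 were higher and 5 lower (11.6% and 16.1% of all genes), with a median of 0.08 against -0.01, and without control culture 1 the number called was 22 in place of 12.

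Plasminogen itself was close to absent. Plg had 1 count in a control tumor, 1 count in a Cd276KO HM-1 culture and none elsewhere. Among the other activators, Hpn, the gene of the membrane protease hepsin, was detected in tumors alone, at 0.334 to 0.766 CPM with the Cd276KO label and 0.678 to 0.931 CPM in controls. Plasminogen is made mainly by the liver, and these counts do not measure protein delivered by blood or serum.

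Of 7 other inhibitors of activation or plasmin, 4 were tested in tumors, 2 in ID8 cultures and 0 in HM-1 cultures. A2m, the gene of the broad protease inhibitor alpha-2-macroglobulin and outside the naming rule, had 85.2, 47.4 and 70.7 CPM in Cd276KO tumors and 14.2, 17.1 and 1.72 CPM in control tumors, a difference that was not called (edgeR adjusted p = 0.0766). In ID8 cultures 1 of the 2 tested was called higher and 1 lower. Thbd, the gene of the thrombin cofactor thrombomodulin, fell by 2.98 on the log2 scale (edgeR adjusted p = 1.56e-17). Serpini1, also outside the naming rule, rose by 2.04 there (edgeR adjusted p = 1.36e-05).

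A further list held 7 receptors that clear activator and inhibitor complexes or associate with the urokinase receptor. In ID8 cultures 1 of 6 tested was higher and 4 were lower, where 60.7% of all genes were called. In HM-1 cultures 1 of 4 was higher and 1 lower, where 27.7% of all genes were called. Lrp1, which takes up complexes of activator and inhibitor, had 93.4, 80.9 and 71.9 CPM in Cd276KO ID8 cultures, against 248, 182 and 218 CPM in control ID8 cultures (log2 fold change -1.32, edgeR adjusted p = 0.000194). In HM-1 cultures it had 196, 260 and 244 CPM with the Cd276KO label, against 61.4, 150 and 129 CPM in controls (log2 fold change 1.08, edgeR adjusted p = 0.0392). Lrp1 fell in ID8 and rose in HM-1, and the difference between the lines was -2.41 (edgeR adjusted p = 0.000134). The HM-1 call was lost when any Cd276KO culture or control culture 3 was left out (edgeR adjusted p = 0.0643 to 0.134).

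Igf2r, a receptor that binds the urokinase receptor and plasminogen, fell in HM-1 cultures by 3.33 on the log2 scale, with 3.01, 4.05 and 4.33 CPM with the Cd276KO label against 23.8, 47.4 and 46.7 CPM in controls (edgeR adjusted p = 0.000482). In ID8 it fell by 0.52 (edgeR adjusted p = 2.67e-07). Vldlr, a receptor related to Lrp1, fell by 2.04 in ID8, whereas Mrc2, the collagen receptor that associates with the urokinase receptor, rose by 1.52 there (edgeR adjusted p = 6.18e-12 and 7.87e-14). Of the genes for plasminogen binding at the surface, Ahnak rose by 1.04 in HM-1 cultures (edgeR adjusted p = 0.00589), and Plgrkt, the plasminogen receptor, rose by 0.36 in ID8 (edgeR adjusted p = 0.000161). Anxa2 and Eno1 fell by 0.22 each in ID8.

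Of 9 receptor partners, Itga5, the fibronectin receptor subunit, fell in Cd276KO tumors by 0.95 on the log2 scale, with 71.0, 101 and 87.6 CPM against 194, 152 and 166 CPM in control tumors (edgeR adjusted p = 0.0278). It also fell by 0.90 in ID8 cultures (edgeR adjusted p = 2.19e-12) and was not called in HM-1 cultures. The integrin genes Itgb3, Itgb1 and Itgb5 rose in HM-1 cultures, by 0.62, 0.42 and 0.31 (edgeR adjusted p = 0.00696, 0.00898 and 0.0217), and Itgb5 fell by 0.85 in ID8 cultures (edgeR adjusted p = 3.58e-11). Of 7 partners tested in ID8 cultures, 2 were called higher and 4 lower, where 29.4% of all genes were called higher and 31.3% lower. The Itgb5 call in HM-1 was lost in 5 of 6 fits that left out a library and the Itgb1 call in 2. The urokinase receptor ligand Vtn stayed at or below 1.54 CPM in every library.

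Among plasmin substrates and targets, Mst1, the gene of macrophage-stimulating protein, had 5.29, 3.83 and 4.78 CPM in Cd276KO tumors, against 11.5, 22.3 and 46.9 CPM in control tumors (log2 fold change -2.52, edgeR adjusted p = 0.0487). F2r, a protease-activated receptor gene, had 237, 310 and 251 CPM in Cd276KO tumors, against 511, 471 and 633 CPM in control tumors (log2 fold change -0.99, edgeR adjusted p = 0.0351). Both also fell in HM-1 cultures, by 1.30 and 0.46 on the log2 scale (edgeR adjusted p = 0.000445 and 0.0132). Bdnf, of the same list, rose there by 0.83 (edgeR adjusted p = 0.000399). Of 5 genes of this list tested there, 1 was called higher and 2 lower, where 11.6% of all genes were called higher and 16.1% lower. The F2r call there was lost when any Cd276KO culture was left out (edgeR adjusted p = 0.0645 to 0.0676), whereas the Mst1 call held in all 6 such fits. Mst1 overlaps Rnf123 on the opposite strand. Cd276, Plg, Anxa2, Lrp1, Igf2r, Sorl1, Egfr, Fn1, Fgg, Bdnf and Bcl2 also overlap other annotated genes on the opposite strand. Reads from each pair cannot be told apart when the strand setting of the counts is unknown. The substrate gene Fn1, for fibronectin, fell by 1.08 in ID8 cultures (edgeR adjusted p = 1.14e-05), and F2rl1, another receptor of this kind, rose there by 3.09 (edgeR adjusted p = 1.02e-11). The fibrinogen genes Fga, Fgb and Fgg were not tested in the 3 knockout comparisons.

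Serpinb8, a clade B serpin that lies near Serpinb2 on chromosome 1, was lower in all 3 knockout comparisons. It had 1.78, 5.11 and 4.03 CPM in Cd276KO tumors, against 18.1, 20.3 and 24.1 CPM in control tumors (log2 fold change -2.49, SE 0.38, edgeR adjusted p = 0.0268). It fell by 1.51 in ID8 cultures and by 1.79 in HM-1 cultures (edgeR adjusted p = 4.43e-06 and 0.000224). Its direction was thus opposite to that of Serpinb2 in the cultures. Bcl2, an apoptosis regulator gene on the same chromosome, fell by 0.86 in tumors and by 0.70 in ID8 cultures (edgeR adjusted p = 0.0247 and 2.46e-08).

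Relatives of Plaur with the same protein fold showed the largest changes of these lists in ID8. Ly6e had 0.0373, 0.0356 and 0 CPM in Cd276KO ID8 cultures, against 19.6, 21.1 and 20.5 CPM in control ID8 cultures, which were higher by a ratio of 801 (95% counting interval 221 to 6619, on 2 counts in the Cd276KO group and 1730 in the control group). Ly6c1 had 0.112, 0.0712 and 0.0847 CPM with the Cd276KO label and 4.08, 3.91 and 3.91 CPM in controls, a control to Cd276KO ratio of 44.4 (21.3 to 111). All 4 tested genes of this list were lower in ID8, as were 31.3% of all genes, while Plaur was higher. In HM-1 cultures Ly6a rose by 0.67 (edgeR adjusted p = 0.0229) and no other gene of the list was called. The Ly6a call was lost when any library other than control culture 1 was left out (edgeR adjusted p = 0.0605 to 0.0912).

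Some of the listed genes, Serping1 and Thbd among them, had few or no counts in HM-1 cultures and were higher in tumors. Of the listed genes, 15 of 34 tested were higher and 9 lower in Cd276KO tumors than in Cd276KO cultures, where 41.2% of all genes were higher and 34.5% lower. In control tumors 17 of 39 were higher and 3 lower than in control cultures, where 25.3% of all genes were higher and 16.6% lower. Serping1, the gene of C1 inhibitor, averaged 35.2 CPM in Cd276KO tumors and 52.8 CPM in control tumors, on 3 and 4 counts in all in the Cd276KO and control HM-1 cultures. Thbd averaged 4.85 CPM in Cd276KO tumors and 6.33 CPM in control tumors and had 0 and 1 count in those cultures. Both were called in both contrasts (edgeR adjusted p = 0.000478 and 0.000347 for Serping1, 3.41e-05 and 0.000646 for Thbd). In ID8 control cultures Thbd averaged 35.2 ± 1.87 CPM and Egfr, a receptor partner, 108.8 ± 5.55 CPM, against 0.375 ± 0.299 CPM of Egfr in HM-1 control cultures (SD, n = 3 each). Of the listed genes, 13 of 33 were higher and 14 lower in ID8 than in HM-1 control cultures (28.8% and 29.6% of all genes).

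**Figure D5:**
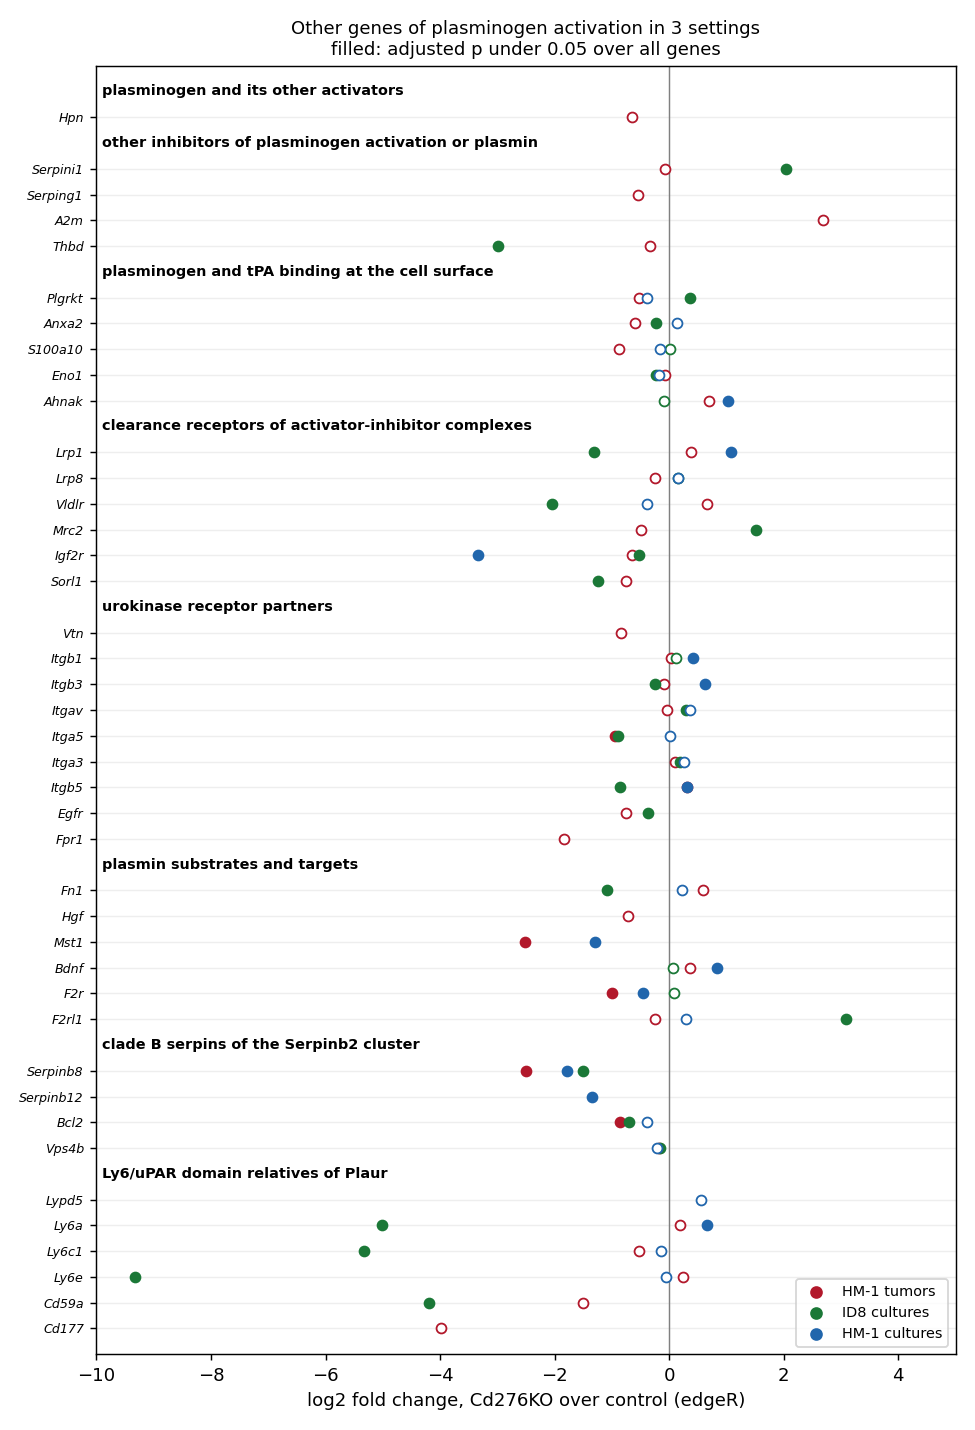
log2 fold change of Cd276KO over control for the listed genes tested in at least 1 setting (rows, grouped by list), in HM-1 tumors, ID8 cultures and HM-1 cultures, filled where the edgeR adjusted p is under 0.05. The 5 filled tumor points, Itga5, Mst1, F2r, Serpinb8 and Bcl2, all lie below 0, and Ly6e in ID8 lies farthest to the left at -9.34.

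The genes whose pattern over the 18 libraries was most like that of a member were ranked by Pearson r of log2(CPM + 1) among 10374 protein-coding genes. These values describe libraries that fall into 6 groups, so they mainly reflect the group levels. For Plau the highest were Nsmf (r = 0.994), Tle2 (0.984) and Slc27a1 (0.982), and for Plat they were Gadd45a, Mpeg1 (0.980 each) and Pik3cd (0.975). For Plaur they were Tbkbp1 (0.985), Ubac2 (0.980) and Ercc1 (0.977). Serpine2 was most like Ednra (0.999), Postn and Aoc3 (0.998 each), which like it were below 1 CPM on average in every culture group. Serpinb2 had lower values, with Slc35e3 (0.876), Ankrd9 (0.858) and S100a10 (0.840). Among the members themselves, r was 0.908 for Plat with Serpine2, 0.862 for Plau with Serpine2, 0.723 for Plau with Plat and 0.116 for Plaur with Plat.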

How the data were processed

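The deposited counts were whole-number reads per gene, not normalized, in 1 table of 18 samples. Per the submitters' processing notes the authors used Trim Galore, STAR and HTSeq on GRCm38 (mm10). Versions, annotation and strand setting were not given in the sources used here. Of 54752 identifiers, 53861 matched GENCODE M21 with their version and 54723 without it, and all 65 listed genes and 5 members were found. CPM (counts per 1000000 library counts) uses a library's total count (17349082 to 30959773), and levels per length divide by the union of exons.

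Per the labels of the series the authors compared groups with DESeq2, which is an alternative here. Differences were tested with edgeR 4.0.16 in R 4.3.3 (robust quasi-likelihood, TMM scaling, filterByExpr) on the 6 libraries compared, with Benjamini-Hochberg adjustment over all genes tested and a threshold of 0.05. The difference between 2 knockout effects was an interaction term over 12 libraries. The script was tested on simulated data. Each library was counted as 1 replicate, as labelled. The smallest chi-square per gene between replicates was 1.571, for HM-1 control cultures 2 and 3. Whether these are separate cultures cannot be told from the counts, so n = 3 may overstate the replication in that group. In no comparison was the correlation of same-numbered samples over 0.1 in every pair, so the numbers were not taken to pair samples.

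Members and lists were chosen with earlier results of these data known. Named besides the members and Cd276 were up to 3 called genes per list and comparison with the largest fold change and a mean of at least 1 CPM, of which part are described, and the 3 genes most like each member among those with a mean of at least 5 CPM. Genes outside this rule (A2m, Serpini1, Plg, Hpn, Vtn, Serpinb10, the fibrinogen genes, the ID8 value of Igf2r) were chosen after their values were seen. Alternatives were RLE size factors, no filter, DESeq2 1.42.0, limma 3.58.1 voom with quality weights, 1 fit over all 18 libraries, a replicate block and leaving out each library. A further gene of the pathway is not reported here. Sequences came from RefSeq on GRCm38.p6, with 3 of 5 members matched.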

Additional observations from a re-analysis of the deposited data

Results flagged for a closer look

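Several knockout effects differed between settings by an edgeR interaction test, in log2 units. Between ID8 and HM-1 cultures, a positive value means a higher effect in ID8. Of the members, the effect on Plaur differed by 1.00 and that on Plat by -0.71. Cd276 differed by 0.80, since it was lower with the Cd276KO label in HM-1 alone. Among receptors, the differences were 2.80 for Igf2r, -2.41 for Lrp1, -2.19 for Sorl1, -1.13 for Ahnak, 0.73 for Plgrkt and -0.38 for Anxa2. The integrin genes differed by -1.17 for Itgb5, -0.93 for Itga5 and -0.88 for Itgb3. Among plasmin targets the values were 2.78 for F2rl1, -2.66 for Mst1 and -1.32 for Fn1. Sorl1 was too low to test in HM-1 cultures alone, and Mst1 in ID8 cultures alone. The Sorl1 and Mst1 differences thus each involve a line with too few counts for its own test. With a library left out, the Anxa2 difference was lost in 7 of 12 fits (edgeR adjusted p up to 0.0758), without Cd276KO culture 1 or 3 or control culture 3 of ID8 or culture 2 or 3 of either HM-1 group. The Mst1 difference was lost without Cd276KO ID8 culture 2 or 3 or control ID8 culture 1, and was -4.45 without Cd276KO ID8 culture 1. The relatives of Plaur gave -9.26 for Ly6e, -5.64 for Ly6a and -5.19 for Ly6c1, fitted values that depend on the prior count because Cd276KO ID8 cultures were near 0.

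Between HM-1 tumors and cultures, a positive value means a higher effect in tumors. The effect on Plau differed by 2.37, that on Igf2r by 2.68 and that on Itga5 by -0.97. The Itga5 difference was lost in 5 of 12 fits with a library left out (edgeR adjusted p up to 0.111), when any 1 of the 3 Cd276KO cultures, Cd276KO tumor 3 or control tumor 1 was left out. No explanation of these differences was tested.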

How the results depend on the processing

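No result of the members or named genes reversed among called values. Plau kept its call in both cultures and in the test of tumors against cultures in every alternative run. In HM-1 cultures, 3452 genes were called, against 7577 with voom and 1725 to 7491 with a library left out. Plat there was no longer called without the filter (0.38), with DESeq2 (0.41), in the fit over 18 libraries (0.39), with the replicate block (0.40) or in 5 of 6 fits with a library left out (0.36 to 0.45 over the 6). Serpinb2 there lost its call over 18 libraries (0.65), with the replicate block (0.66) and in 3 of 6 left-out fits (0.55 to 0.80). In ID8 the fit over 18 libraries called 4259 genes, not 7849, and neither Plat (-0.29) nor Serpinb2 (1.16).

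In tumors, 827 genes were called, against 2465 with DESeq2, 3194 with voom, 4003 over 18 libraries, 0 with edgeR and the replicate block (2726 at an unadjusted p under 0.05) and 0 to 1685 with a library left out. Plau (0.87) and Plat (0.83) lost their calls with the block, and ranged over 0.71 to 0.98 and 0.73 to 1.00 with a library left out. Plaur was called with voom (-0.47) and over 18 libraries (-0.80), as was Serpinb2 over 18 libraries (-4.07). Control tumors against cultures gave 6107 genes, against 9509 with voom and 9975 over 18 libraries. Between Cd276KO tumors and cultures Plaur (-0.42) was not called over 18 libraries. The test of tumors against cultures called 443 genes, against 953 with DESeq2, 845 over 18 libraries and 225 to 913 with a library left out, and Serpinb2 became called over 18 libraries (-4.72) and without control tumor 1 (-5.20 to -2.71 over the left-out fits). The causes were not tested. The replicate numbers pair no samples by design: same-numbered ID8 cultures correlated at 0.0795, 0.0321 and 0.0897, each best with its own number, a hint from the data only.

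Serpinb2 in ID8 and Serpine2 in cultures rest on few counts, which limits what their levels show. RLE size factors moved the median log2 fold change of all genes by at most 0.00819. Leaving out a library leaves 2 in its group.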
